A study of Arabidopsis thaliana with 6 samples.

Results

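LCR69 and LCR72 are a pair of plant defensin genes of Arabidopsis thaliana, and their transcripts were followed here in mature pollen. They were taken as the probe sets of an Affymetrix ATH1 array annotated to LCR69 (locus AT2G02100, also named PDF2.2) and to LCR72 (locus AT2G02140, also named PDF2.6). That gave 2 probe sets, 1 per gene, of 22746 that are not array controls. The pair was proposed with earlier results of these arrays in view. Its levels are therefore a description, and no p-value is given for either gene.

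The series measured total RNA of mature pollen on 6 arrays, 2 for each of 3 groups, all in the Col-0 background. The groups were Col-0 wild type (stock N1092), the SAIL_1168_C11 insertion line, called TF1 in the sample titles, and the SALK_018864 insertion line, called TF2. All plants were raised in compost under growth room conditions (21 °C, 75% humidity), with no treatment named. Each line is a single insertion stock, its zygosity is not given in the labels, and whether the arrays of a group came from separate plants or pollen collections is not stated, so the SDs and the p-values given here for other genes may reflect technical spread alone. From knowledge outside the labels, the SALK_018864 insertion lies in BZIP34, a bZIP transcription factor gene; the labels do not name the gene hit in SAIL_1168_C11.

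Plant defensins are small secreted peptides whose fold is held together by disulfide bonds between conserved cysteines. Several of them inhibit the growth of fungi, and the wider defensin-like family also acts in reproduction, where LURE peptides released by the ovule attract pollen tubes. The name LCR stands for low-molecular-weight cysteine-rich. Pollen consists of a large vegetative cell, which grows the tube, and the sperm cells it carries.

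LCR69 signal stepped down from wild type to TF1 to TF2, and in TF2 it was below the median signal of the arrays. Signals are array intensities on a linear scale, as deposited. The wild-type arrays gave LCR69 signals of 319 and 358, the TF1 arrays 172 and 213, and the TF2 arrays 22.4 and 24.5. The 3 groups did not overlap, and the TF2 arrays stood far below the other four. Group means were 338 ± 27.8 in wild type, 193 ± 29.5 in TF1 and 23.4 ± 1.47 in TF2 (SD, n = 2 arrays each).

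The wild-type mean of LCR69 was 1.76 times that of TF1 and 14.4 times that of TF2, and the TF1 mean was 8.21 times that of TF2. The ratios to TF2 are rough, since they rest on signals of 22.4 and 24.5. These lie within the range of the other, mostly dim defensin genes (1.16 to 59.3). Without detection calls, whether they exceed background was not tested. Differences were also computed as log2(signal + 10.3), where 10.3 is the 25th percentile of all values and keeps dim signals from dominating. This scale understates the difference of dim genes. On it LCR69 differed from wild type by −0.79 (SE 0.28) in TF1 and by −3.37 (SE 0.28) in TF2, and TF2 differed from TF1 by −2.58 (SE 0.28). The gap between the arrays of a group was at most 0.30 on the same scale, that of the TF1 arrays. With 2 arrays a group and a pair chosen on these arrays, the gap is given as a description only.

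Groups without overlap, like those of LCR69, were common on these arrays. Of 11373 probe sets at or above the median brightness, both TF1 arrays lay below both wild-type arrays for 31.3% and above them for 30.4%. For TF2 against wild type these shares were 31.8% and 35.3%, and for TF2 against TF1 22.6% and 23%. Both LCR69 and LCR72 were among these 11373, LCR69 through its wild-type and TF1 signals. Since the pair was chosen on these arrays, nothing is read from these shares.

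Quantile normalization, which gives all arrays the same distribution of values, left the order of LCR69 in place. The 6 quantile-normalized signals were 283 and 343 for wild type, 176 and 221 for TF1 and 25.9 and 25.9 for TF2. Again the groups did not overlap. The log2 differences became −0.63 (SE 0.28) for TF1 against wild type, −3.15 (SE 0.28) for TF2 against wild type and −2.52 (SE 0.28) for TF2 against TF1. Among the probe sets of its own array, LCR69 was brighter than 91.0% and 92.2% for wild type, 87.2% and 89.3% for TF1 and 40.7% and 40.7% for TF2.

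LCR72 was a very bright probe set on every array, and its deposited signal ran the other way. Its signals were 11316 and 9491 for wild type, 17111 and 18783 for TF1, and 21769 and 21932 for TF2. The wild-type arrays were the lowest, the TF2 arrays the highest, and the groups did not overlap. Means were 10404 ± 1290 in wild type, 17947 ± 1182 in TF1 and 21850 ± 115 in TF2 (SD, n = 2 arrays each). The wild-type mean was 0.580 times that of TF1 and 0.476 times that of TF2, and TF2 was 1.22 times TF1. On the log2 scale TF1 minus wild type was 0.79 (SE 0.13) and TF2 minus wild type 1.08 (SE 0.13). TF2 minus TF1 was 0.29 (SE 0.13), and arrays of a group lay at most 0.25 apart.

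**Figure D1:**
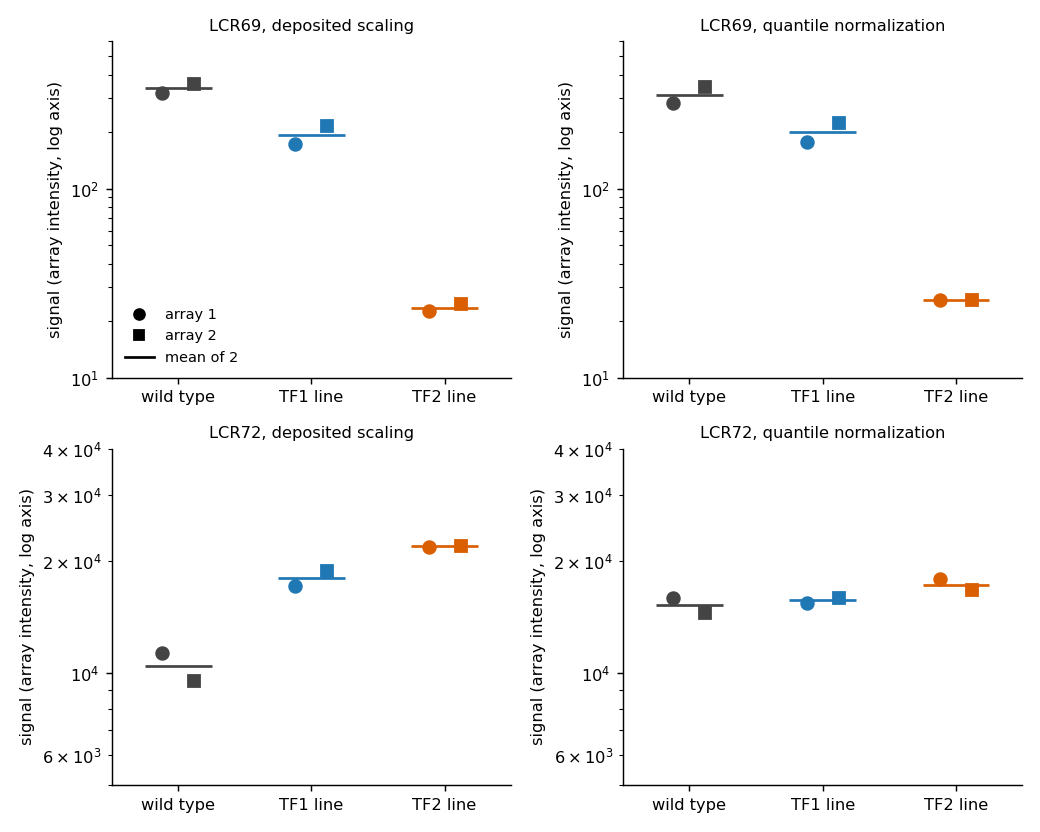
Signal of LCR69 (top) and LCR72 (bottom) on each of the 6 arrays, as deposited (left) and after quantile normalization (right), on log axes of array intensity; circles and squares are the arrays numbered 1 and 2 in the labels and lines are means of 2 arrays. In TF2 LCR69 is at 23.4 as deposited and 25.9 after normalization, the lowest of the 3 groups. The LCR72 groups, apart as deposited, come closer after quantile normalization, where TF1 and wild type overlap and TF2 stays above both.

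After quantile normalization the higher LCR72 signal of the lines was nearly gone. The quantile-normalized signals were 15918 and 14442 for wild type, 15365 and 15918 for TF1 and 17829 and 16647 for TF2. TF1 and wild type then overlapped, with a log2 difference of 0.04 (SE 0.10). TF2 stayed above both other groups, by 0.18 (SE 0.10) over wild type and 0.14 (SE 0.10) over TF1. LCR72 kept nearly the same place on its array throughout, ranking from the top 72 and 84 (wild type), 76 and 72 (TF1) and 62 and 68 (TF2) of 22746 probe sets. A rank reflects how brightly a probe set binds as well as how abundant its transcript is.

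The bright end of the arrays as a whole was higher in the lines. The 99th percentile of signal was 3659 and 3434 for wild type, 6306 and 6076 for TF1 and 6900 and 6638 for TF2, although the authors' scaling puts the trimmed mean of every array at the same value. Among the 227 probe sets in the brightest 1% (a class set after the values were seen), 225 had a TF1 difference above 0 and 222 a TF2 difference above 0. Their median log2 difference from wild type was 0.83 in TF1 and 0.97 in TF2, while the median of all 11373 kept probe sets was −0.02 and 0.05. LCR72 was exceeded by 135 of the 227 in TF1 and by 79 in TF2. After quantile normalization the medians of the bright class were 0.03 and 0.04. These small values are largely set by the method, which gives the brightest ranks of every array the same values.

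Spiked-in hybridization controls gave another yardstick, chosen after the values were seen. The 4 probe sets for the cre control are about as bright as LCR72, and their mean signal was 12463 and 10388 for wild type, 10964 and 15391 for TF1 and 8390 and 13052 for TF2. Unlike LCR72, the cre signal overlapped between all 3 groups. With each array scaled to the 18 probe sets of the bioB, bioC, bioD and cre controls, LCR72 read 10633 and 10126 for wild type, 18217 and 13355 for TF1 and 32374 and 19432 for TF2. These groups did not overlap, but the spread within the lines widened: the log2 differences from wild type were 0.59 (SE 0.47) in TF1 and 1.27 (SE 0.47) in TF2.

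**Figure D2:**
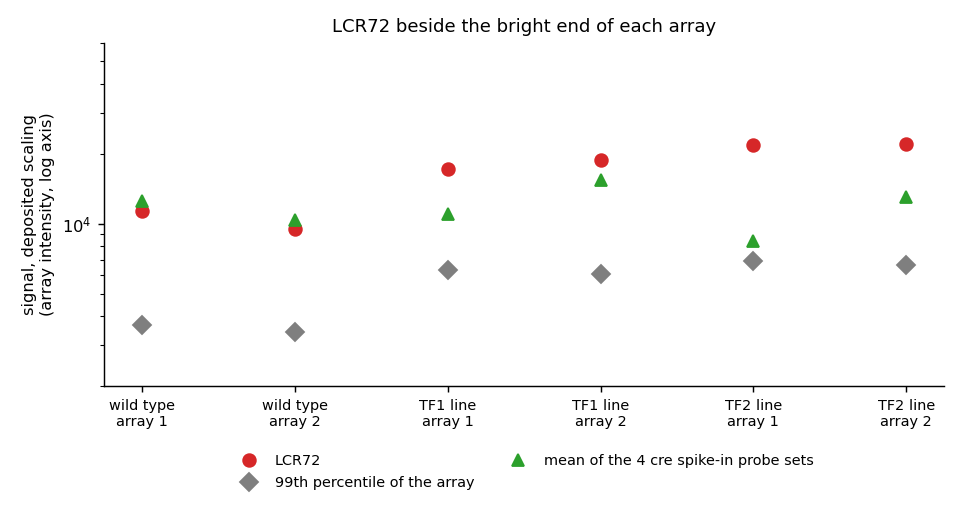
Deposited signal of LCR72 on each array (red) beside the 99th percentile of that array and the mean of the 4 cre spike-in probe sets, on a log axis of array intensity. LCR72 moves up together with that percentile in the lines, from near 10404 to 21850, while the cre signal overlaps between groups.

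The order of LCR69 was the same under each scaling, while the size of the LCR72 difference was not. Centring each array on its median gave LCR69 differences of −0.63 in TF1 and −3.25 in TF2, and LCR72 differences of 0.94 and 1.19. Scaling to the spiked-in controls gave −0.98 and −3.22 for LCR69. These scalings also move the median of all kept probe sets. For TF1 against wild type it went from −0.02 to 0.11 under quantile normalization, 0.14 under median centring and −0.19 with the spiked-in controls. For TF2 it went from 0.05 to 0.14, 0.16 and 0.23 in the same order. LCR69 stayed below these medians in both lines under all 4 scalings. Under quantile normalization LCR72 was below the median in TF1 and 0.05 or less above it in TF2.

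**Figure D3:**
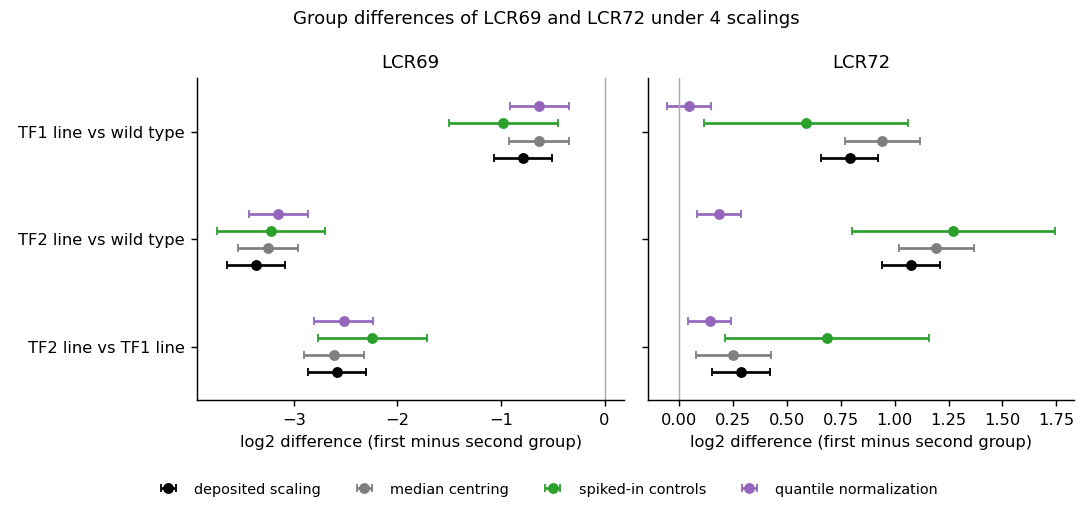
Log2 difference of LCR69 (left) and LCR72 (right) for the 3 pairs of groups; points are limma estimates with bars of 1 SE, under the deposited scaling, median centring, scaling to spiked-in controls and quantile normalization. For TF1 against wild type the LCR69 estimates run from −0.98 to −0.63 and those of LCR72 from 0.04 to 0.94; for TF2 against wild type those of LCR69 lie between −3.37 and −3.15.

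Markers of pollen and of leaf also differed between wild type and the lines. Markers of pollen were present in every group: the summed signal of the 13 of 22 listed genes that could be matched, among them the sperm histone gene MGH3 and the pollen tube receptor kinase gene ANX1, was 19649 to 20862 in wild type, 34569 to 36547 in TF1 and 40106 to 44265 in TF2. In limma, 11 of these 13 were higher in TF1 (Benjamini-Hochberg adjusted p under 0.05), where 11.9% of all kept probe sets were called higher, and 10 of 13 in TF2, where the share was 14.8%. Their median log2 difference was 0.79 in TF1 and 0.81 in TF2, beside the 0.79 and 1.08 of LCR72. With quantile normalization limma called 6 of the 13 higher in TF1 and 4 in TF2, where 9.3% and 15.1% of kept probe sets were called. The medians of the 13 were then 0.46 and 0.32, beside the 0.04 and 0.18 of LCR72. The part of the pollen marker shift in the LCR72 difference was not tested.

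Leaf markers were lower in both lines. The 7 of 23 listed leaf genes that could be matched, such as RCA and LHCB4.2, summed to 4626 to 4912 in wild type, 326 to 367 in TF1 and 379 to 410 in TF2. All 7 were called lower in each line by limma, against 9.64% of kept probe sets in TF1 and 16% in TF2. The same count of 7 was called lower in each line with quantile normalization, against 6.94% and 13.3%. None of the 7 was called between the lines by limma, where 4.65% of kept probe sets were. At so small a share, a set of 7 without a call shows nothing particular. Their log2 differences for TF2 minus TF1 ran from −0.68 (LHCB4.1) to 1.12 (SBPASE). In whole pollen samples, fewer cells of a type and less RNA per cell cannot be told apart. The part of the leaf signal in the LCR69 differences was not tested.

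Only 2 of 18 listed floral and epidermal genes could be matched, both of flavonoid metabolism. BAN, which acts in proanthocyanidin synthesis of the seed coat, read 41.5 and 70.0 (wild type), 203 and 176 (TF1) and 15.4 and 4.77 (TF2), highest in TF1. DFR, an enzyme of flavonoid synthesis, read 116 and 91.8, 190 and 175, and 74.7 and 139, with wild type and TF2 overlapping. The tapetum list was represented by AMS alone, at 2.54 to 91.9 over the 6 arrays. The housekeeping controls for the 3′ ends of actin and GAPDH went down in the same order as LCR69: actin went from 595 and 700 (wild type) through 220 and 231 (TF1) to 99.6 and 138 (TF2). The control for the 3′ end of ubiquitin did not: it read 5354 and 4368 (wild type), 5770 and 4714 (TF1) and 5613 and 5892 (TF2), with TF1 overlapping both other groups. What these markers contribute to the LCR69 signal was not tested.

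The other family members with a probe set were mostly dim. The reference gene table holds 117 genes of the numbered LCR, PDF and SCRL families, of which 13 had a probe set of their own in the annotation used here. Besides LCR69 and LCR72 these were 11 genes with signals from 1.16 to 59.3 and a median of 12.1 over the 66 values, of which 13 were above the median of their array. Only PDF1.2b passed the filter on dim probe sets, and the other 10 were below it.

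**Figure D4:**
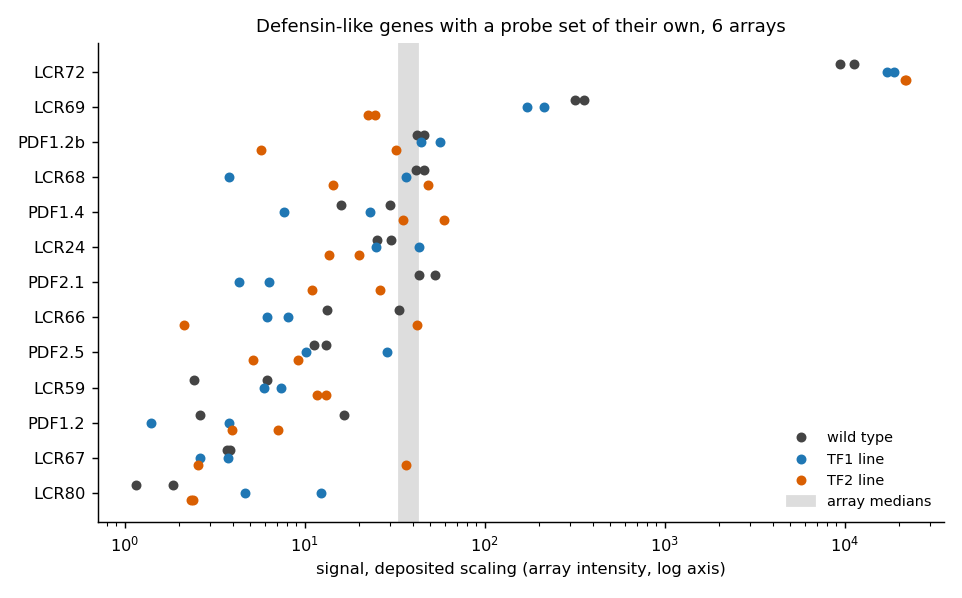
Deposited signal (array intensity, log axis) of the 13 defensin-like genes with a probe set of their own, each dot 1 array, coloured by group, ordered by median; the grey band spans the medians of the 6 arrays, 33.6 to 43.0. LCR72 and the wild-type and TF1 arrays of LCR69 stand to the right of the band, and the other 11 genes reach at most 59.3.

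PDF1.2b is a close copy of PDF1.2, a gene widely used as a marker of jasmonate and ethylene signalling, and the name of its probe set carries the suffix that Affymetrix gave to sets with probes shared between transcripts. It read 42.3 and 46.3 for wild type, 44.3 and 56.9 for TF1 and 32.2 and 5.70 for TF2. The TF2 arrays were both lower than the others but far apart. Of kept probe sets, limma called 21.6% for TF1 against wild type, 30.8% for TF2 against wild type and 4.65% for TF2 against TF1. PDF1.2b did not pass the threshold for TF1 against wild type (log2 difference 0.15, SE 0.66, adjusted p = 0.913), TF2 against wild type (−1.06, SE 0.66, adjusted p = 0.259) or TF2 against TF1 (−1.22, SE 0.66, adjusted p = 0.363). The TF2 differences rest on single arrays: they were −1.77 and −1.92 without TF2 array 1 and −0.36 and −0.51 without TF2 array 2. PDF1.2 itself read 1.40 to 16.5 over the 6 arrays.

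Without the filter all 11 genes could be tested. None passed the adjusted threshold in limma in any of the 3 comparisons, in which 9.57%, 14.5% and 1.63% of the 22746 probe sets were called. At an unadjusted p under 0.05 there were 2 for TF1 against wild type and 0 for the other comparisons, beside 21%, 26.1% and 12.6% of the 22746 probe sets. Their median log2 difference was −0.07 in TF1, −0.33 in TF2 and 0.42 between TF2 and TF1, beside −0.05, 0.02 and 0.05 for all probe sets without the filter. Signals this dim cannot show a modest difference with 2 arrays a group.

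Among the defensin genes below the filter, PDF2.1 showed the widest gap from wild type. PDF2.1, also named LCR70, read 43.3 and 52.8 for wild type, 6.36 and 4.33 for TF1 and 26.4 and 11.1 for TF2. Both lines lay below wild type and TF1 was the lowest, an order unlike that of LCR69. Its log2 differences were −1.90 (SE 0.68) in TF1 and −1.05 (SE 0.68) in TF2, with limma's adjusted p of 0.116 and 0.367 when no filter was applied. LCR68, also named PDF2.3, read 46.2 and 41.4, 36.6 and 3.81, and 48.7 and 14.4, and its groups overlapped between the lines and, for TF2, with wild type.

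The remaining 7 genes were dim in every group. PDF1.4 was highest in TF2, at 35.2 and 59.3, beside 29.7 and 15.9 in wild type and 23.1 and 7.64 in TF1. LCR67, also named PDF1.1, was at 2.57 to 3.87 on 5 arrays and at 36.7 on TF2 array 1. LCR66 (PDF2.4) ranged from 2.14 to 42.2, with both extremes in TF2. LCR24 read 13.7 to 43.2, PDF2.5 5.16 to 28.8, LCR59 2.43 to 13.1 and LCR80 1.16 to 12.4.

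LCR69 and LCR72 lie in a cluster of defensin genes on chromosome 2. In the reference gene order 6 genes stand between them, among them PDF2.1, LCR68 and the pseudogene LCR71, and LCR73 follows LCR72. Within 5 genes on either side of the pair 18 genes are annotated, of which 8 had a probe set of their own. As deposited, the difference between the lines and wild type did not run evenly along this stretch, since LCR69 was lower and LCR72 higher. After quantile normalization the higher LCR72 signal was nearly gone. PDF2.1 and LCR68, the only genes between the pair with a probe set of their own, were dim. Probe sequences were not used here, so binding of related transcripts of the cluster to these probe sets was not tested.

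**Figure D5:**
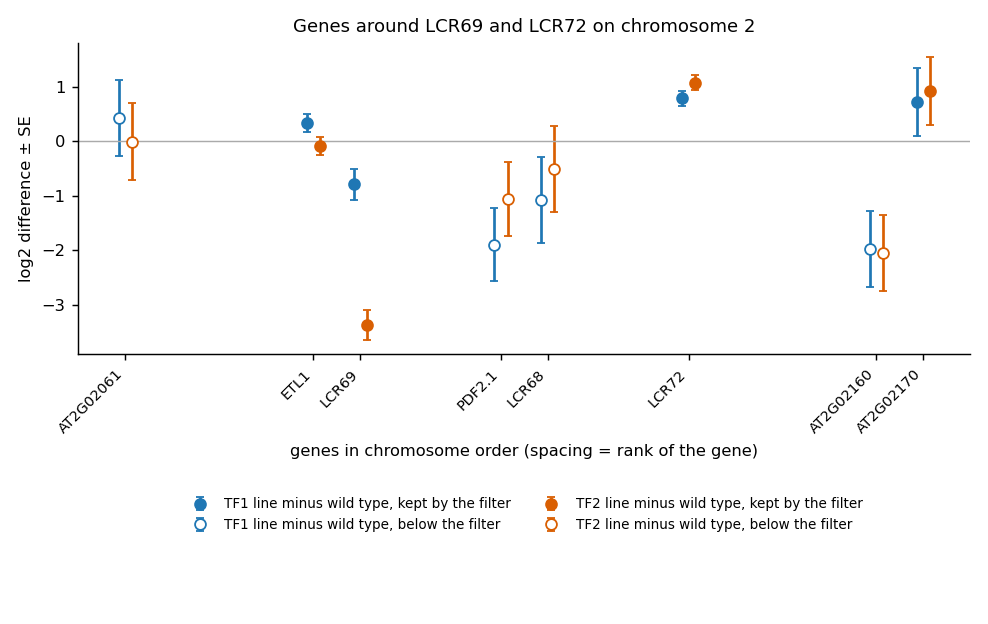
Log2 difference from wild type, with bars of 1 SE, for the 8 genes with a probe set around LCR69 and LCR72, placed by their rank along chromosome 2; blue is TF1, orange is TF2, and open circles are probe sets below the filter. In TF2 LCR69 is at −3.37, AT2G02160 at −2.04, PDF2.1 at −1.05 and LCR68 at −0.50. ETL1 is at −0.09, AT2G02061 at −0.002, AT2G02170 at 0.93 and LCR72 at 1.08.

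ETL1, a chromatin remodelling gene also named CHR19, is the gene next to LCR69. It read 544 and 572 for wild type, 791 and 639 for TF1 and 475 and 576 for TF2. The TF1 arrays were the highest, and wild type and TF2 overlapped. In limma ETL1 did not pass the threshold in TF1 (log2 difference 0.34, SE 0.17, adjusted p = 0.177) or in TF2 (−0.09, SE 0.17, adjusted p = 0.722).

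Beyond LCR72, AT2G02170 read 32.9 and 18.6 for wild type, 24.3 and 87.5 for TF1 and 62.5 and 52.0 for TF2. Its TF1 arrays overlapped with those of both other groups, and it did not pass the threshold against wild type in limma (0.72, adjusted p = 0.481 in TF1, and 0.93, adjusted p = 0.293 in TF2). AT2G02160 read 89.6 and 73.2 for wild type, 6.16 and 22.6 for TF1 and 12.6 and 11.1 for TF2, lower on every array of the lines. It was below the filter, and without one its limma adjusted p was 0.111 and 0.0745. AT2G02061 read 3.74 to 36.1, with all groups overlapping.

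The genes whose signals followed each member most closely were sought among 2529 kept probe sets with 1 gene and a difference of at least 1 log2 unit between group means. Likeness was Pearson's r of log2 signal over the 6 arrays, which share their scaling and fall into 3 groups, and it is given as a description. For LCR69 the 5 closest were AT3G04920, AT2G19730, AT5G40810, AT5G58930 and AT1G29670, with r from 0.996 to 0.998. In all, 124 had r above 0.95.

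AT1G29670 had the widest range of these, with 327 and 268 for wild type, 103 and 152 for TF1 and 5.23 and 5.76 for TF2. AT2G19730 was the brightest, with 721 and 676, 386 and 499.6, and 90.9 and 102 for these groups. AT3G04920 read 155 and 182, 80.6 and 88.1, and 6.28 and 6.36, while AT5G58930 read 207 and 217, 112 and 112, and 16.4 and 13.96. In all 4 TF1 lay between wild type and TF2, an order largely set by choosing them for their r with LCR69. AT5G40810 had the same order over a narrower range, from 147 and 155 in wild type through 115 and 131 in TF1 to 60.2 and 66.3 in TF2. This likeness holds for the deposited scaling. After quantile normalization the TF1 difference of AT5G40810 was −0.001, unlike the −0.63 of LCR69. Those of the other 4 ran from −0.94 (AT1G29670) to −0.59 (AT5G58930).

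For LCR72 the 5 closest were AT5G50030, AT5G26060, CSLC12, AT3G07810 and AT3G56600, with r from 0.996 to 0.999, and 228 had r above 0.95. AT5G50030 was also a bright probe set, at 16076 and 13748 for wild type, 24582 and 27801 for TF1 and 32993 and 32895 for TF2. CSLC12, of a cellulose synthase-like family that makes xyloglucan backbones, read 1930 and 1499, 3832 and 4738, and 5247 and 5544. These likenesses hold for the deposited scaling. After quantile normalization the TF1 difference of AT5G50030 was 0.03, like the 0.04 of LCR72, whereas that of CSLC12 was 0.68 and that of AT3G07810 1.18. AT5G26060 and AT3G56600 were at 0.06 and 0.21. The log2 signals of LCR69 and LCR72 themselves correlated at r = −0.83 over the 6 arrays.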

How the data were processed

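Per the submitters' processing notes, MAS5 and GCOS made the values; no version or setting is stated there. The authors deposited them as linear signal intensities, with no detection calls, and had scaled the arrays: a mean trimmed by 2% at both ends came to 100.0 for each of the 6.

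Control probe sets (64 of 22810) were set aside. Log2(signal + 10.3) was fitted over the 6 arrays together with limma 3.58.1 in R 4.3.3 (lmFit, then eBayes with an intensity trend), for the 11373 probe sets whose mean log2 value was at or above the median. Adjusted p-values are limma's after Benjamini-Hochberg adjustment over these, two-sided, with 0.05 as the threshold. For probe sets below the filter, differences and SEs come from the same fit without it. Quantile normalization and median centring acted on the log2 values. Spike-in scaling divided each array by the geometric mean of its controls. The fit was also run on simulated data with independent normal noise and far fewer changed probe sets than were called here. That run had no shift of the bright end, so it does not check the fit for these arrays. The number of arrays limits the precision. Exact permutation of 2 arrays against 2 cannot pass the threshold and was not run.

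Of the probe sets, 13513 had 1 listed gene, 503 several and 8730 none. Of those with 1 gene, 13436 matched a RefSeq table (TAIR10.1), used for names and gene order only. Members, lists and naming rules were chosen with earlier results of these data known. Named genes were the pair, all other defensins with a probe set, neighbours within 5 genes, and the 5 genes most alike to each. Alternatives covered pseudocount, scaling, filter, trend, replicate block and each array left out. A list of other small cysteine-rich proteins, a sequence signature and promoter motifs were planned but not used here, for want of sequences.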

Additional observations from a re-analysis of the deposited data

How the results depend on the processing

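LCR69 was below 0 in all 3 comparisons under each pseudocount, scaling, block, filter, trend and left-out array run. LCR72 was above 0 in them, but for TF1 against wild type with quantile normalization the difference (0.045, SE 0.10) was smaller than its error and gives no direction. The filter and the trend leave the estimates as they are by construction. Sizes moved by more than the SD between arrays in many. For LCR69, TF1 against wild type was −0.63 with quantile normalization, −0.63 with median centring and −0.98 with the spiked-in controls. TF2 against wild type was −3.71 with the pseudocount at the 5th percentile, −2.74 with a pseudocount of 32, −3.15 with quantile normalization and −3.22 with the spiked-in controls. TF2 against TF1 was −2.90 and −2.01 with these pseudocounts and −2.24 with the spiked-in controls. For LCR72, quantile normalization gave 0.045, 0.18 and 0.14 for TF1 and TF2 against wild type and TF2 against TF1, the spiked-in controls 0.59, 1.27 and 0.68, and median centring 0.94 and 1.19 for the lines against wild type. The cause of the LCR72 differences between scalings was not tested.

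Leaving out each array in turn gave −0.94 to −0.64, −3.45 to −3.28 and −2.73 to −2.43 for LCR69, and 0.66 to 0.92, 0.95 to 1.20 and 0.22 to 0.35 for LCR72, in the same order of comparisons; a lone array is then assumed to vary like the other groups. The replicate block left the differences of LCR69 (−0.79, −3.37, −2.58) and LCR72 (0.79, 1.08, 0.29) as they were and changed no call; replicate numbers did not pair the arrays, whose deviations correlated at 0.002 to 0.02 between groups. The count of other defensins past the threshold was 0 under every alternative, with 1 gene tested in each except 11 without the filter.

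Signs turned for genes that were not called. ETL1 in TF2 was 0.027 with median centring, 0.10 with the spiked-in controls and −0.23 to 0.045 with arrays left out, above 0 without TF2 array 1. PDF1.2b in TF1 was −0.0166 with the spiked-in controls. With arrays left out, AT2G02170 was −0.031 (without TF1 array 2) to 1.47 in TF1 and −0.54 (without TF1 array 1) to 0.96 between the lines. Signs of genes below the filter turned too with arrays left out. In TF2 LCR66 was −1.37 to 0.71, LCR67 −0.13 to 1.73, LCR68 −1.13 to 0.13 and PDF1.2 −0.76 to 0.29. In TF1 PDF1.4 was −0.85 to 0.047, PDF2.5 −0.13 to 0.80 and LCR24 −0.11 to 0.49. Between the lines the sign turned for LCR66, LCR67, LCR68, AT2G02160 and AT2G02061, the last of which turned in both lines too. The lists that need protein sequences were not run.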
